A study of Rattus norvegicus with 18 samples.

Results

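Bone marrow mesenchymal stem cells (BMSC) from rats fed a high-fat diet (HFD) for 1 month were compared with BMSC from rats fed a normal diet (ND) for the same time. The comparison used 6 of the study's 18 arrays, 3 per diet, chosen by the diet and feeding time in their labels and not by any measured value. The rats were Sprague-Dawley, 6 weeks old when feeding began. HFD was made of 60% basal diet, 20% lard, 10% sucrose and 10% egg yolk powder, and ND was 100% basal diet. In both groups the cells came from whole marrow plated directly and passaged in low-glucose DMEM with 10% fetal bovine serum, so they had left the animal, and its diet, before RNA was taken. Passage 3 is stated for each sample, but passage 1 in the description of the series. Total RNA was hybridised to Affymetrix rat arrays. The other 12 arrays came from rats fed either diet for 2 or 4 months and are used here for the model's common estimate of spread and to set the 1-month differences against those of independent arrays. All levels are log2 of the deposited intensity, and each difference is HFD minus ND on that scale, so a difference of 1 is a doubling of the signal.

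BMSC are the plastic-adherent stromal cells of the marrow. They can form fat, bone and cartilage cells, secrete factors that sustain blood formation, and carry surface proteins such as Thy1 (CD90), Itgb1 (CD29) and Cd44. Plating of whole marrow also lets macrophages attach, which may persist through early passages, so macrophage genes are part of any reading of such cultures.

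The stromal markers Thy1 and Itgb1 were bright on every array. Thy1 stood at 11.97, 11.94 and 11.99 on the HFD arrays, against 11.99, 11.82 and 12.13 on the ND arrays, and Itgb1 at 11.29, 11.05 and 11.25, against 10.87, 11.03 and 11.23. The groups overlapped for both genes, and none of the 13 tested stromal surface markers, of 15 listed, had an unadjusted p under 0.05. Not every marker was bright. Vcam1 stood at 4.00, 2.73 and 4.03 on HFD arrays, against 6.77 and 4.08 on ND replicates 2 and 3, with no value on ND replicate 1. Macrophage RNA was also present, and unevenly so. The lysozyme gene Lyz2 stood at 12.34, 12.92 and 12.17 on HFD arrays, against 12.89, 9.60 and 8.07 on ND arrays. Over the 25 macrophage markers with a value on all 6 arrays, of 32 listed and 30 tested, summed linear intensity was 12824, 26674 and 11565 on HFD arrays and 31704, 5410 and 2721 on ND arrays. In RNA from a whole culture, a change in the number of macrophages cannot be told apart from a change in the RNA each one holds. Of markers of other blood and vessel cells, 7 of 17 for lymphocytes and 4 of 12 for endothelium passed the intensity filter. Cd3e, a part of the T cell receptor complex, stood between 2.79 and 3.46 on all 6 arrays, while the endothelial gene Egfl7 stood between 6.39 and 6.82 and Cd8a, a T cell coreceptor, reached 5.71 on ND replicate 1. Array values have no true zero, so no marker is at 0.

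HFD replicate 2 and ND replicate 1 stood apart from the other arrays of their own diets. Their levels correlated better with each other (r = 0.985 over 20663 probe sets) than with any array of their own group, where HFD replicate 2 reached 0.960 and ND replicate 1 reached 0.945. HFD replicates 1 and 3 correlated at 0.989 with each other, and ND replicates 2 and 3 at 0.979. The same pair had the highest macrophage marker signal and the lowest adipocyte lineage signal. Pparg, the master regulator of fat cell formation, stood at 6.78, 3.42 and 5.65 on HFD arrays, against 2.56, 6.94 and 7.15 on ND arrays. Plin1, a lipid droplet coat protein, followed the same order, with 8.38, 2.97 and 5.15 on HFD arrays, against 2.66, 7.5 and 7.94 on ND arrays. Other members of the adipogenic list went the other way, as Cebpb, Cebpd and Plin2 were highest on this pair. Cebpb stood at 9.63, 10.72 and 9.67 on HFD arrays, against 10.86, 9.38 and 9.38 on ND arrays. Each diet therefore held 1 culture with low Pparg and Plin1 and much macrophage RNA. Results that rest on this pair are given with and without it.

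**Figure D1:**
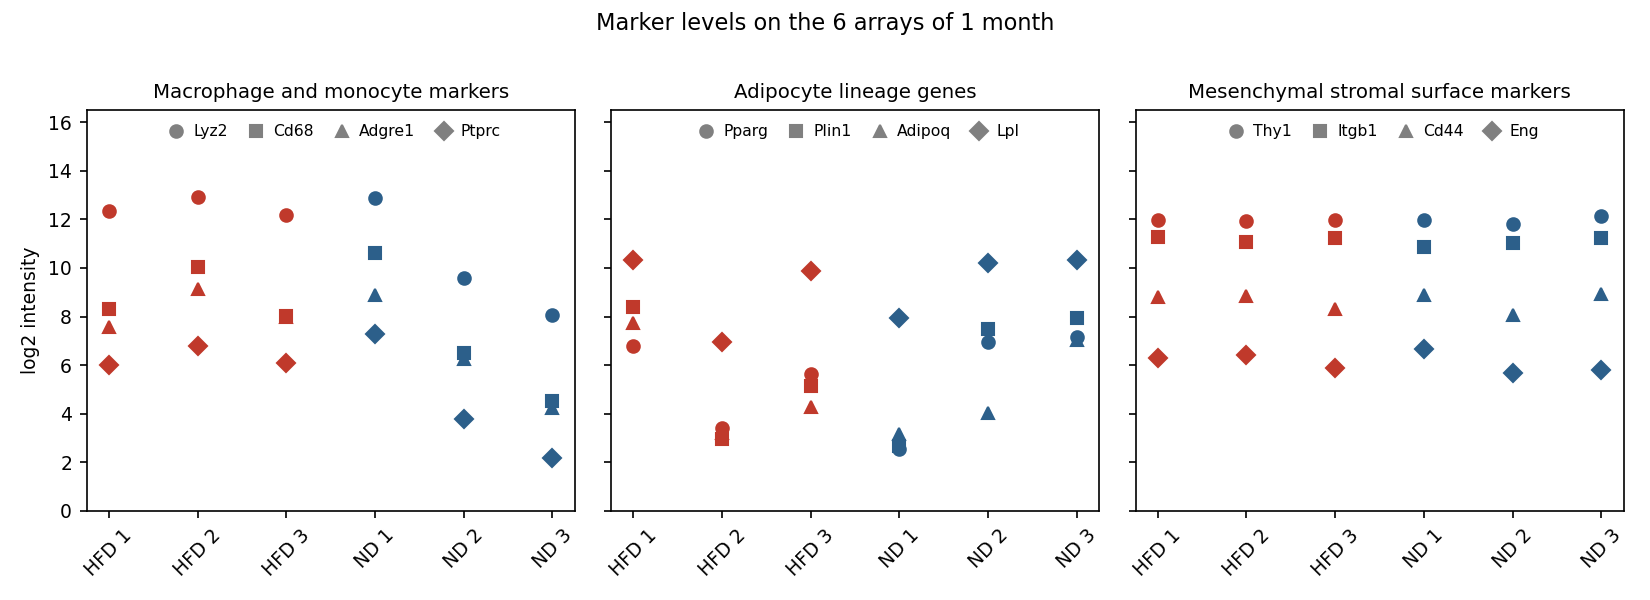
Levels (log2 intensity, vertical axis) of macrophage, adipocyte lineage and stromal surface genes on the 3 HFD arrays (red, left) and the 3 ND arrays (blue, right) of 1 month, 1 symbol per gene. HFD replicate 2 and ND replicate 1 combine high macrophage markers with low Pparg and Plin1, while Thy1 lies between 11.82 and 12.13 on all 6 arrays.

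Array-wide values also moved with diet. The 75th percentile of linear intensity was 125.3, 122.9 and 119.1 on HFD arrays, below the 129.6, 129.6 and 128.4 of the ND arrays. For the beta-actin control, signal at the 3' end minus that at the 5' end, which grows as RNA is degraded or copied short, was 0.586, 0.624 and 0.640 on HFD arrays, against 0.506, 0.494 and 0.476 on ND arrays, with no overlap. The same difference overlapped between the diets for the Gapdh control, at 0.035, 0.103 and 0.019 on HFD arrays and 0.129, 0.035 and 0.062 on ND arrays. It also overlapped for the hexokinase control, at 1.72, 1.98 and 1.54 on HFD arrays and 1.21, 1.42 and 1.80 on ND arrays. The part of these array-wide values in the gene differences below was tested only by adding the actin value of each array to the model and by quantile normalization.

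No probe set passed at an adjusted p of 0.05 in limma's moderated test of HFD against ND at 1 month, which is 0% of the 21729 tested. An unadjusted p under 0.05 was reached by 2124 probe sets, 9.77% of those tested, where 5% would be 1086. Of these, 799 (3.68%) were higher in HFD and 1325 (6.1%) were lower. The lowest adjusted p was 0.0513, and the 24 leading genes described below lay between 0.0564 and 0.178. With the 6 arrays of 1 month fitted alone, where the spread is estimated from fewer arrays, the lowest adjusted p was 0.64. Whether the number of arrays or their own spread raised it was not tested. The lowest adjusted p was 0.412 without HFD replicate 2 and ND replicate 1, and 0.188 with the actin value as a covariate. All differences below are therefore measurements that did not pass the test over the whole array.

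Collapsed to 1 probe set per gene, the brightest, 11446 named genes were measured, and 7161 of them (62.6%) were lower in HFD and 4285 (37.4%) higher, with a median difference of -0.06. An unadjusted p under 0.05 was reached by 1020 named genes (8.91%), of which 351 were higher (3.07%) and 669 lower (5.84%). Among the 10564 named genes with a value on all 6 arrays, every HFD array lay below every ND array for 1160 (11%) and above every ND array for 488 (4.62%). The balance depended on scaling: 29.6% of the genes without overlap were higher in HFD as deposited, 22% after median centring and 37.7% after quantile normalization. Most differences were small. Of the 766 genes without overlap that also had an unadjusted p under 0.05, 7 differed by 2-fold or more. Over all named genes, overlapping ones included, 121 differed by 2-fold or more, and here the balance was the opposite, with 102 higher and 19 lower.

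Genes lower in HFD were mostly expressed at middle to high levels, and genes higher in HFD mostly at low levels. The 509 lower genes without overlap and with an unadjusted p under 0.05 had a median level of 7.10, and the 257 higher ones had a median level of 4.33. With the named genes divided into 5 groups of equal size by their level on the 12 arrays of 2 and 4 months, the median difference was 0.09 in the dimmest group and -0.06, -0.11, -0.10 and -0.07 in the next 4. The dimmest group held 300 of the 488 genes that were higher without overlap and 75 of the 1160 that were lower. Quantile normalization, which gives every array the same spread of values, shrank the 5 medians to 0.02, -0.02, -0.03, -0.02 and -0.06.

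**Figure D2:**
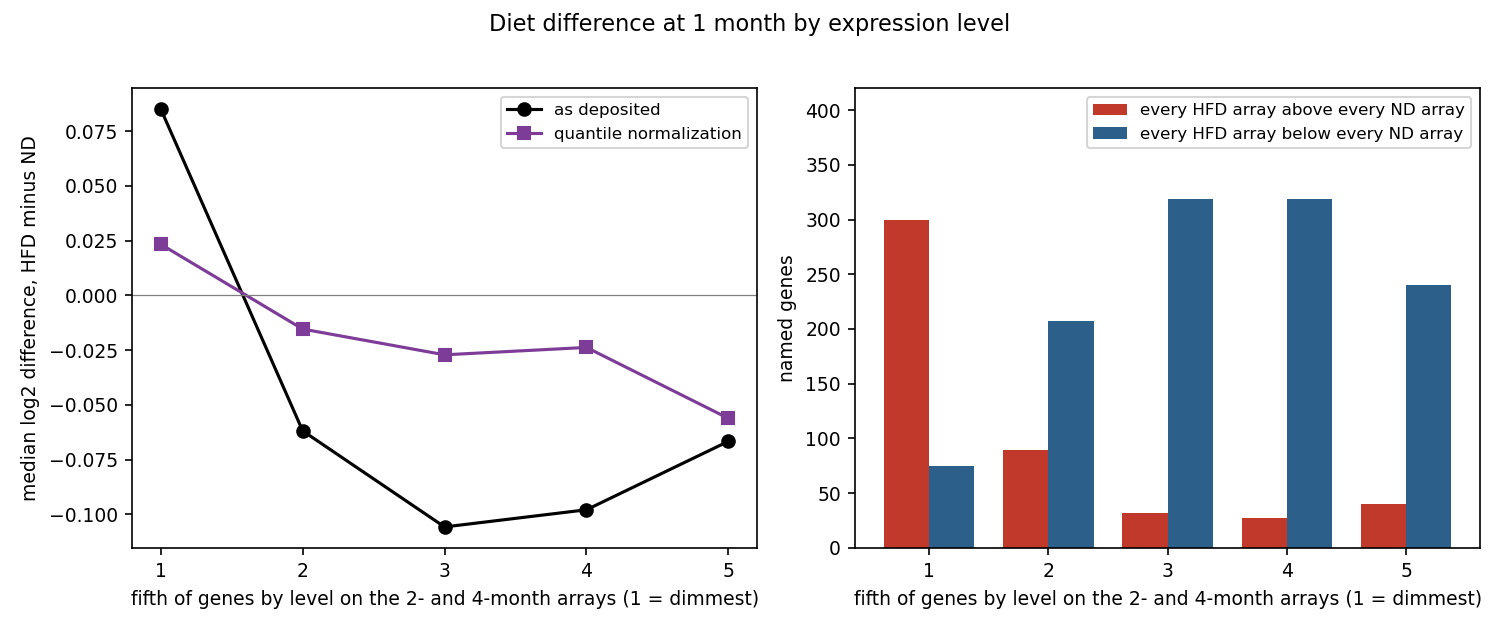
Left, median log2 difference of HFD minus ND at 1 month (vertical axis) for 5 groups of the named genes by expression level (horizontal axis, dimmest first), as deposited and after quantile normalization. Right, number of named genes per group with every HFD array above (red) or below (blue) every ND array: 300 and 75 in the dimmest group, 40 and 240 in the brightest.

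Pdxdc1, which encodes a protein with a pyridoxal-dependent decarboxylase domain, had the lowest moderated t among genes with no overlap. It stood at 5.23, 4.55 and 5.16 on HFD arrays, against 6.12, 6.75 and 6.46 on ND arrays. Every HFD array lay below every ND array, and the difference was -1.46 ± 0.24 (SE, n = 3 arrays per diet), a ratio of 0.363, with a limma adjusted p of 0.0564. Pias1, a SUMO ligase, was at 7.16, 7.13 and 7.16 on HFD arrays, against 7.67, 7.57 and 7.55 on ND arrays. The groups did not overlap and the replicates lay close together, so that a difference of -0.45 ± 0.07 had a limma adjusted p of 0.0564.

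Then came 3 factors of messenger RNA processing and decay. Khsrp, which binds AU-rich elements and recruits the decay machinery, was at 7.22, 7.19 and 7.35 on HFD arrays, against 8.0, 8.13 and 7.85 on ND arrays. Ddx6, an RNA helicase of processing bodies, was at 8.69, 8.54 and 8.77 on HFD arrays, against 9.18, 9.36 and 9.16 on ND arrays. Srrm2, a scaffold of nuclear splicing speckles, was at 10.00, 9.71 and 9.93 on HFD arrays, against 10.38, 10.57 and 10.36 on ND arrays. None of these genes had overlapping groups, and their differences were -0.74 ± 0.13, -0.57 ± 0.10 and -0.55 ± 0.10, in that order, with limma adjusted p values of 0.0564, 0.0564 and 0.0566.

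The signalling kinase Taok1 was at 6.91, 6.76 and 7.03 on HFD arrays, against 7.38, 7.67 and 7.56 on ND arrays, a difference of -0.64 ± 0.11 with a limma adjusted p of 0.0566. The orphan nuclear receptor Nr2c1 was at 6.67, 6.64 and 6.64 on HFD arrays, against 7.07, 7.08 and 7.22 on ND arrays. The remaining leading genes of lower signal were R3hcc1l (-0.60), the exocyst subunit Exoc8 (-0.64), the drug efflux pump Abcc1 (-0.56), the kinase Stk35 (-0.42) and the ubiquitin ligase Trim11 (-0.49), all without overlap, and their limma adjusted p values lay between 0.0909 and 0.108.

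Genes of higher signal were led by dim transcripts. Nxnl1, known from photoreceptors as the source of a cone survival factor, was at 4.30, 4.45 and 4.47 on HFD arrays, against 3.87, 3.92 and 3.85 on ND arrays. Zic2, a zinc finger transcription factor of brain development, was at 5.85, 5.66 and 5.95 on HFD arrays, against 5.17, 5.17 and 5.30 on ND arrays. Chn2, a GTPase-activating protein for Rac, was at 4.79, 4.68 and 4.57 on HFD arrays, against 3.40, 3.81 and 3.62 on ND arrays. The groups did not overlap for any of these genes, and the differences were 0.53 ± 0.08, 0.61 ± 0.10 and 1.07 ± 0.20, with limma adjusted p values of 0.0564, 0.0564 and 0.0876.

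Further genes without overlap on this side had limma adjusted p values of 0.155 and above. Cnr1, the cannabinoid receptor, was at 4.12, 4.71 and 4.63 on HFD arrays, against 3.72, 3.72 and 3.90 on ND arrays, a difference of 0.71 ± 0.16. The immune-associated GTPase Gimap6 differed by 0.45, the olfactory G protein subunit Gnal by 0.63, the eye homeobox gene Vax2 by 0.47, the gap junction protein Gjb1 by 0.55 and the background potassium channel Kcnk3 by 0.51. The 12 leading higher genes had mean levels between 3.63 and 6.48, and the 12 leading lower genes between 4.68 and 10.2.

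**Figure D3:**
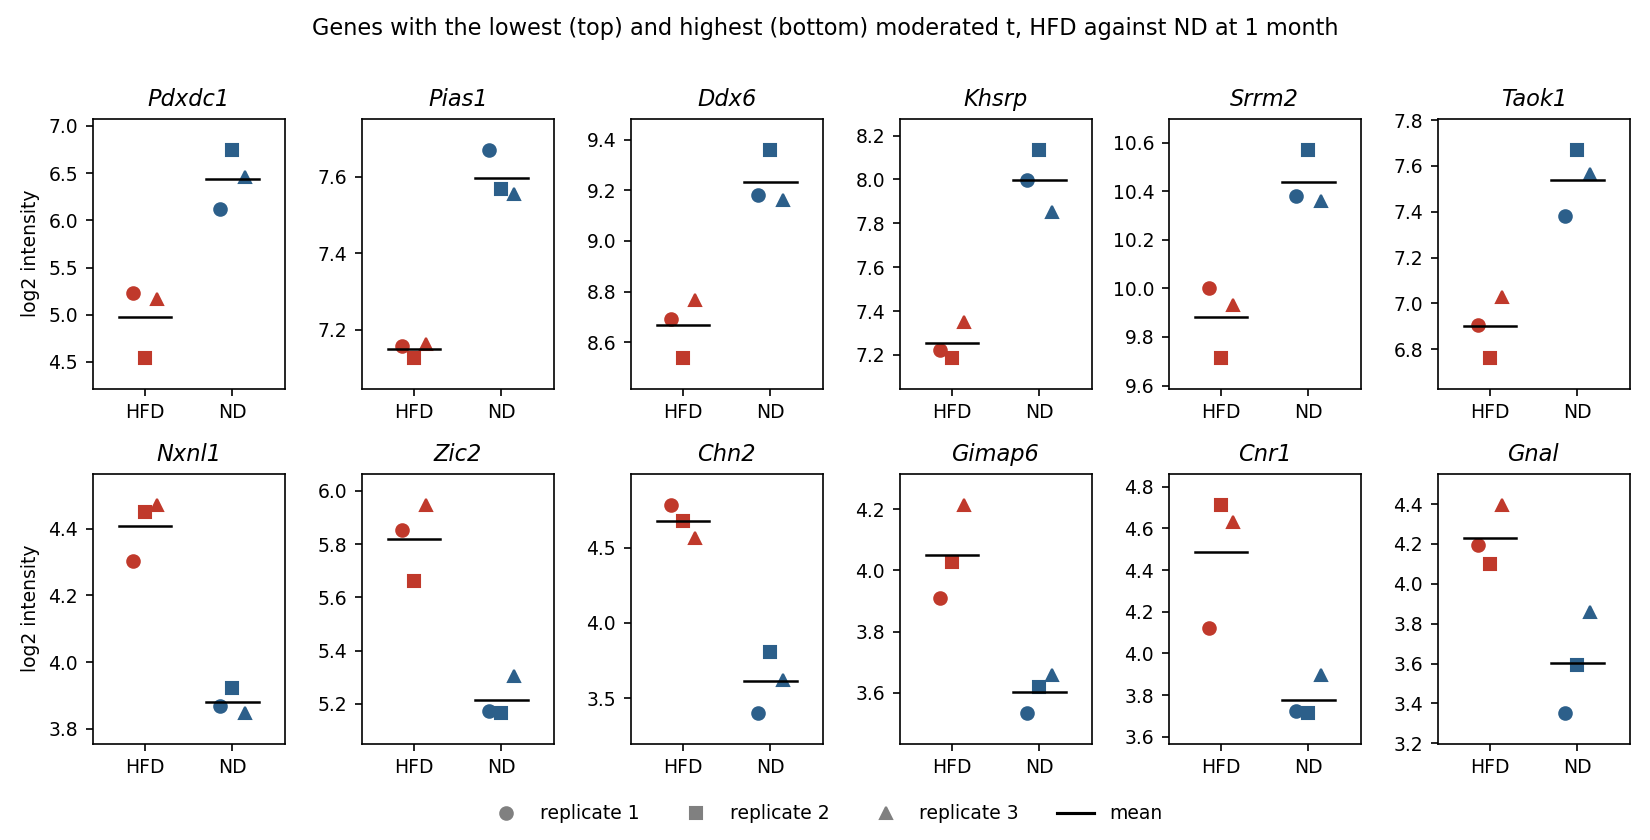
Levels (log2 intensity, vertical axis, a separate scale per gene) on the 3 HFD arrays (red, left) and the 3 ND arrays (blue, right), with the group mean as a black line, for the 6 genes with the lowest moderated t (top) and the 6 with the highest (bottom). The genes were chosen from those whose groups do not overlap, so the separation in each panel follows from the choice, and the panels show the size of the gap and the spread within each diet.

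The promoters of these genes differed in their content of the dinucleotide CG, the site of DNA methylation in mammals, which is the same on both strands. The RefSeq promoter table (build GRCr8, 250 bases before to 50 after the start) held exactly 1 promoter for 8904 of the 11446 named genes, and 94.8% of all its promoters held at least 1 CG. Among the 509 lower genes, 424 had a promoter, with a median of 22 CG and a median observed-to-expected ratio of 0.824. Among the 257 higher genes, 189 had one, with a median of 14 CG and a ratio of 0.528, and over all named genes the medians were 21 and 0.770. A ratio above 0.6 was found in 82.5% of the lower genes' promoters, in 45% of the higher genes' and in 72.5% of all. Part of this went with level, as the share over all genes was 48.2% in the dimmest of the 5 level groups and 79.8% in the middle group. Within the dimmest group it was still 66.7% for the lower genes and 39.1% for the higher, and in the next group 74.7% and 52.4%. In the middle group it was 86.8% for the lower genes and 85.7% for the higher, the latter from 7 promoters. The promoters of Pdxdc1 and Pias1 (lower) and of Nxnl1 and Zic2 (higher), the leading pair on each side, are shown with each CG in capitals to let the contrast be read directly. Pdxdc1 lies at chr10:2532262-2532561 on the plus strand, Pias1 at chr8:72334262-72334561 on the minus strand, Nxnl1 at chr16:18310595-18310894 on the minus strand and Zic2 at chr15:105983092-105983391 on the plus strand, all in GRCr8.
Pdxdc1: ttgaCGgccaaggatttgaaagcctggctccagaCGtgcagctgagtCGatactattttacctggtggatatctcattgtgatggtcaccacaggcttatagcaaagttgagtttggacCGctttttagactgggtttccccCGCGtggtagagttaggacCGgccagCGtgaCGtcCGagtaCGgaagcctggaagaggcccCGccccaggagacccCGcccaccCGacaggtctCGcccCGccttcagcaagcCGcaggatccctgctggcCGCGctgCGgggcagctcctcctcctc
Pias1: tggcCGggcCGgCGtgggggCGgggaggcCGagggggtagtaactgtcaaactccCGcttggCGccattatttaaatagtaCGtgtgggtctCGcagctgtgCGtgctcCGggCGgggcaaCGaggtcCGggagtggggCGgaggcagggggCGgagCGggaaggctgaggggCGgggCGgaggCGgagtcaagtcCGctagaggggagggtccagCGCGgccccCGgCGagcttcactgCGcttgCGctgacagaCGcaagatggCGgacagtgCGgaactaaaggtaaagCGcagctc
Nxnl1: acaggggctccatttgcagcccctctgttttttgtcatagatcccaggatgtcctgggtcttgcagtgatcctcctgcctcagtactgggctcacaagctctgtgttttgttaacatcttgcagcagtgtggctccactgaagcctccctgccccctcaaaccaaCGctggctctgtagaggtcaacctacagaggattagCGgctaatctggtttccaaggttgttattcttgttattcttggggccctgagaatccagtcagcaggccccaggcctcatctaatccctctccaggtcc
Zic2: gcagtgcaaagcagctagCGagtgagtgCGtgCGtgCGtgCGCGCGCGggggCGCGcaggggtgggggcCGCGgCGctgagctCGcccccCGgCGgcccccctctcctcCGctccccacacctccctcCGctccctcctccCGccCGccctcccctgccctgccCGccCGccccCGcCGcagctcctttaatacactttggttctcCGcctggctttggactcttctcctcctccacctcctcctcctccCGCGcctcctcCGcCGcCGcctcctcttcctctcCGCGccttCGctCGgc
They hold 20, 31, 2 and 34 CG in that order, so the leading higher pair joins a promoter nearly free of CG to one rich in it, and the median contrast does not hold gene by gene. No methylation was measured here.

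Larger differences without overlap belonged to genes whose arrays also varied more. Il1rn, the secreted antagonist of the interleukin-1 receptor, was at 6.11, 7.46 and 7.14 on HFD arrays, against 8.60, 10.05 and 8.08 on ND arrays. Its difference of -2.01 ± 0.55, a ratio of 0.248, had a limma adjusted p of 0.244. Vegfd, a ligand that drives lymphatic vessel growth, was at 4.31, 5.93 and 5.18 on HFD arrays, against 6.16, 7.22 and 6.65 on ND arrays, a difference of -1.54 ± 0.45 with a limma adjusted p of 0.276. On the 2-month arrays both genes were again lower in HFD and passed the test there, by -3.25 for Il1rn (limma adjusted p = 0.0117) and by -2.61 for Vegfd (limma adjusted p = 0.0131), while at 4 months the differences were 0.13 and -0.44 and did not pass.

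Wfdc1, a secreted WAP-domain protein, had the largest positive difference without overlap. It was at 8.63, 8.04 and 8.51 on HFD arrays, against 6.84, 3.37 and 6.73 on ND arrays, lowest on ND replicate 2, and the difference was 2.75 ± 0.92 (limma adjusted p = 0.313). Without that array the difference was 1.61. Spn, the leukocyte surface protein CD43, was at 5.86, 4.96 and 5.52 on HFD arrays, against 4.59, 3.59 and 2.82 on ND arrays, a difference of 1.78 ± 0.76. The actin nucleator Cobl was at 7.60, 7.95 and 8.30 on HFD arrays, against 6.96, 7.08 and 7.54 on ND arrays. Its difference was 0.75 at 1 month and 1.2 at 2 months, where it passed (limma adjusted p = 0.0178). Il36rn, the antagonist of the interleukin-36 receptor, was at 4.24, 4.70 and 4.52 on HFD arrays, against 3.70, 3.95 and 3.75 on ND arrays, opposite in direction to Il1rn. After 2 months Wfdc1 differed by 3.57 and Il36rn by 0.48, while Spn differed by -0.99, opposite in sign to 1 month.

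Further genes had large negative differences without overlap. Arhgap5, a GTPase-activating protein, was at 7.58, 7.17 and 7.54 on HFD arrays, against 8.29, 8.38 and 8.52 on ND arrays, a difference of -0.96 ± 0.23. Rest, the repressor of neuronal genes outside the nervous system, was at 3.95, 3.92 and 3.67 on HFD arrays, against 4.98, 4.51 and 4.53 on ND arrays, a difference of -0.83 ± 0.23. The scaffold protein Tanc2 (-1.02) and Prkab2, a regulatory subunit of the energy sensor AMPK (-0.90), also had groups without overlap, as did Kank2 (-0.88), the kinase Tnik (-0.84) and the homeobox gene Hoxc8 (-0.83). The limma adjusted p of these genes lay between 0.139 and 0.469. After 2 months the differences were 0.70 for Arhgap5, 0.37 for Hoxc8 and 0.04 for Prkab2, opposite in sign to 1 month. Those of Rest (-0.43), Tanc2 (-0.20), Kank2 (-0.27) and Tnik (-0.07) kept their sign.

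For 882 of the named genes ND replicate 1 has no value, since its column had to be moved, and the ND mean rests on replicates 2 and 3 alone. C5ar1, the receptor of the complement fragment C5a, was at 7.85, 9.78 and 7.56 on HFD arrays, against 5.38 and 3.69 on ND replicates 2 and 3, and Gpnmb, a glycoprotein of macrophages and osteoclasts, at 11.54, 12.24 and 11.48, against 10.01 and 8.57. Their differences of 3.86 and 2.46 leave out the ND array on which the measured macrophage markers were highest. On the lower side the Polycomb-related gene Sfmbt1 (-0.49), the mTOR inhibitor Tsc2 (-0.40) and Acadm, which opens the oxidation of medium-chain fatty acids (-0.49), had HFD arrays below both ND arrays. None passed, with limma adjusted p values of 0.178 to 0.296.

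Splicing and RNA decay factors were mostly lower in HFD. Of 40 tested, 35 were lower and 5 higher, where 62.6% of all named genes were lower, with a median of -0.18 against -0.06. Of the 37 with a value on all arrays, 13 were lower without overlap and 0 higher, where 11% and 4.62% of all named genes were, and 8 of the 40 had an unadjusted p under 0.05, all lower, where 5.84% of all named genes were lower at that threshold. Besides Khsrp, Ddx6 and Srrm2 these included Hnrnpu, which packages nuclear RNA, at 10.23, 10.24 and 10.14 on HFD arrays, against 10.47, 10.54 and 10.39 on ND arrays, a difference of -0.26 ± 0.09. The list's median was -0.19 without HFD replicate 2 and ND replicate 1, -0.11 without ND replicate 2 and -0.09 with the actin value as a covariate. No member passed, and as the list's leading members were known from earlier results of these arrays, its count is no independent evidence.

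SUMO and ubiquitin ligases followed the same direction with smaller sizes. Of 24 tested, 21 were lower and 3 higher, with a median of -0.11, and 5 of 23 were lower without overlap, against 11% of all named genes. Pias4, a relative of Pias1, was at 5.72, 5.87 and 5.59 on HFD arrays, against 6.42, 6.23 and 6.11 on ND arrays, a difference of -0.52 ± 0.12 with a limma adjusted p of 0.172. This list includes the leading gene Pias1 and was chosen with earlier results of these arrays known, so its counts are no independent evidence either.

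Mitochondrial and lipid genes had small negative medians, and 62.6% of all named genes were lower too. Of 25 tested genes of oxidative phosphorylation, 23 were lower and 2 higher, with a median of -0.10. Uqcrc2, a core subunit of complex III, was at 10.03, 9.98 and 9.91 on HFD arrays, against 10.16, 10.36 and 10.11 on ND arrays, a difference of -0.24 ± 0.09. Ndufs1 of complex I (-0.23) and Sdha of complex II (-0.27, with 2 ND arrays) were the other 2 with an unadjusted p under 0.05. At that threshold 5.84% of all named genes were lower. Among 19 genes of fatty acid oxidation, 13 were lower and 6 higher (median -0.20). Cpt2, which reloads acyl groups inside the mitochondrion, was at 6.72, 6.65 and 6.58 on HFD arrays, against 6.94, 7.11 and 7.10 on ND arrays, and Ucp3, a mitochondrial carrier, was at 4.63, 4.71 and 4.76, against 4.28, 4.49 and 4.57. These were the only members of the oxidation list without overlap among those with 6 values, Cpt2 lower by -0.40 and Ucp3 higher by 0.26. Cholesterol synthesis and uptake had 17 of 19 genes lower and a median of -0.19, with no member free of overlap. Fatty acid and triglyceride synthesis had 16 of 20 lower and a median of -0.11. With the actin value as a covariate the medians were -0.04 for oxidative phosphorylation, 0.05 for fatty acid oxidation, 0.05 for fatty acid synthesis and -0.14 for cholesterol genes. No gene of these lists passed.

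Macrophage and lysosomal genes lay high in HFD, with the reservation that ND replicate 1 carried the highest macrophage signal of the 6 arrays. Of 30 tested macrophage markers, 26 were higher and 4 lower, with a median of 1.48, and 0 of the 25 with 6 values were free of overlap. The 5 with an unadjusted p under 0.05 were Gpnmb, Cd53, Aif1, Lyz2 and Cd14, and 4 of these 5 have no value on ND replicate 1. Among all named genes 37.4% were higher, and 3.07% were higher at that threshold. The macrophage median was 1.28 over the 25 markers with 6 values and 2.24 without the pair of arrays that stood apart, and 0.94 over all 30 with the actin value as a covariate. Leaving out 1 array at a time gave 0.41 without ND replicate 3, 0.88 without HFD replicate 2 and 2.72 without ND replicate 1. Of 21 lysosomal genes, 20 were higher, with a median of 0.26, which was -0.07 with the macrophage mean and -0.09 with the actin value as a covariate. The cathepsin genes Ctsd (1.2) and Ctsb (0.75), both without a value on ND replicate 1, were near 0 with that covariate, at -0.02 and -0.05. Asah1, the acid ceramidase, was free of overlap, at 9.90, 9.74 and 9.87 on HFD arrays, against 9.47, 9.26 and 9.44 on ND arrays, a difference of 0.45 ± 0.17 (limma adjusted p = 0.378). Mmp12, an elastase of macrophages, was at 8.94, 8.12 and 8.80 on HFD arrays, against 5.81 and 4.29 on ND replicates 2 and 3.

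Inflammatory lists were mixed. As a background, 37.4% of all named genes were higher. At an unadjusted p under 0.05, 3.07% of all named genes were higher and 5.84% lower. Of 27 secreted factors associated with senescence, 22 were higher and 5 lower, with a median of 0.25 and no unadjusted p under 0.05. Their median was 0.10 over the 19 with a value on all 6 arrays. Of 20 acute phase and interleukin genes, 14 were higher and 6 lower (median 0.27), yet both members with an unadjusted p under 0.05, Il1rn and the transcription factor Stat3 (-0.35), were lower. Of 9 genes of MHC class II presentation, 8 were higher (median 0.30), led by Ciita, the activator of these genes, at 4.13, 4.32 and 4.27 on HFD arrays, against 3.88, 3.71 and 3.78 on ND arrays. Of 23 interferon response genes, 15 were lower and 8 higher (median -0.15), and the 3 with an unadjusted p under 0.05 were higher and dim: Mx2 (0.39), Ifit1 (0.42) and Ifih1 (0.31). The macrophage mean as a covariate moved the medians of the first 3 lists to 0.10, -0.07 and -0.20.

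Lineage, matrix and growth signals showed no common direction. For comparison, 62.6% of all named genes were lower. At an unadjusted p under 0.05, 5.84% of all named genes were lower and 3.07% higher. Adipogenic genes were lower in 10 of 16 (median -0.13) and osteogenic genes higher in 6 of 9 (median 0.15, and -0.02 without the pair that stood apart), with wide spread between cultures of the same diet. Collagens and other matrix genes were higher in 23 of 41 (median 0.03). Plod2, which hydroxylates lysine for collagen cross-links, was at 11.28, 11.53 and 11.27 on HFD arrays, against 11.08, 10.82 and 11.26 on ND arrays, a difference of 0.31. TGF-beta and BMP genes were higher in 15 of 29 (median 0.00). The 2 members with an unadjusted p under 0.05 were the signal carriers Smad4, at 8.45, 8.36 and 8.23 on HFD arrays, against 8.73, 8.5 and 8.54 on ND arrays (-0.24), and Smad2 (-0.34), measured on 2 ND arrays. Among WNT genes Axin2, a feedback inhibitor and common readout of the pathway, was at 4.57, 4.53 and 4.39 on HFD arrays, against 5.25, 5.12 and 4.71 on ND arrays (-0.53), and Wnt11 was at 5.06, 5.21 and 5.28, against 4.91, 5.03 and 4.57 (0.35). Among 15 angiogenic factors, Vegfd and Vegfc (-0.63, with 2 ND arrays) were the 2 lower members with an unadjusted p under 0.05. Antioxidant genes were lower in 22 of 28 (median -0.11), with Gsr, the glutathione reductase, at 5.14, 5.41 and 5.04 on HFD arrays, against 5.91, 5.70 and 5.45 on ND arrays, and with Gpx1, a glutathione peroxidase, higher by 0.69 on 2 ND arrays. Cell cycle genes were lower in 29 of 37 (median -0.10) with no unadjusted p under 0.05, and their median was 0.61 with the actin value as a covariate.

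**Figure D4:**
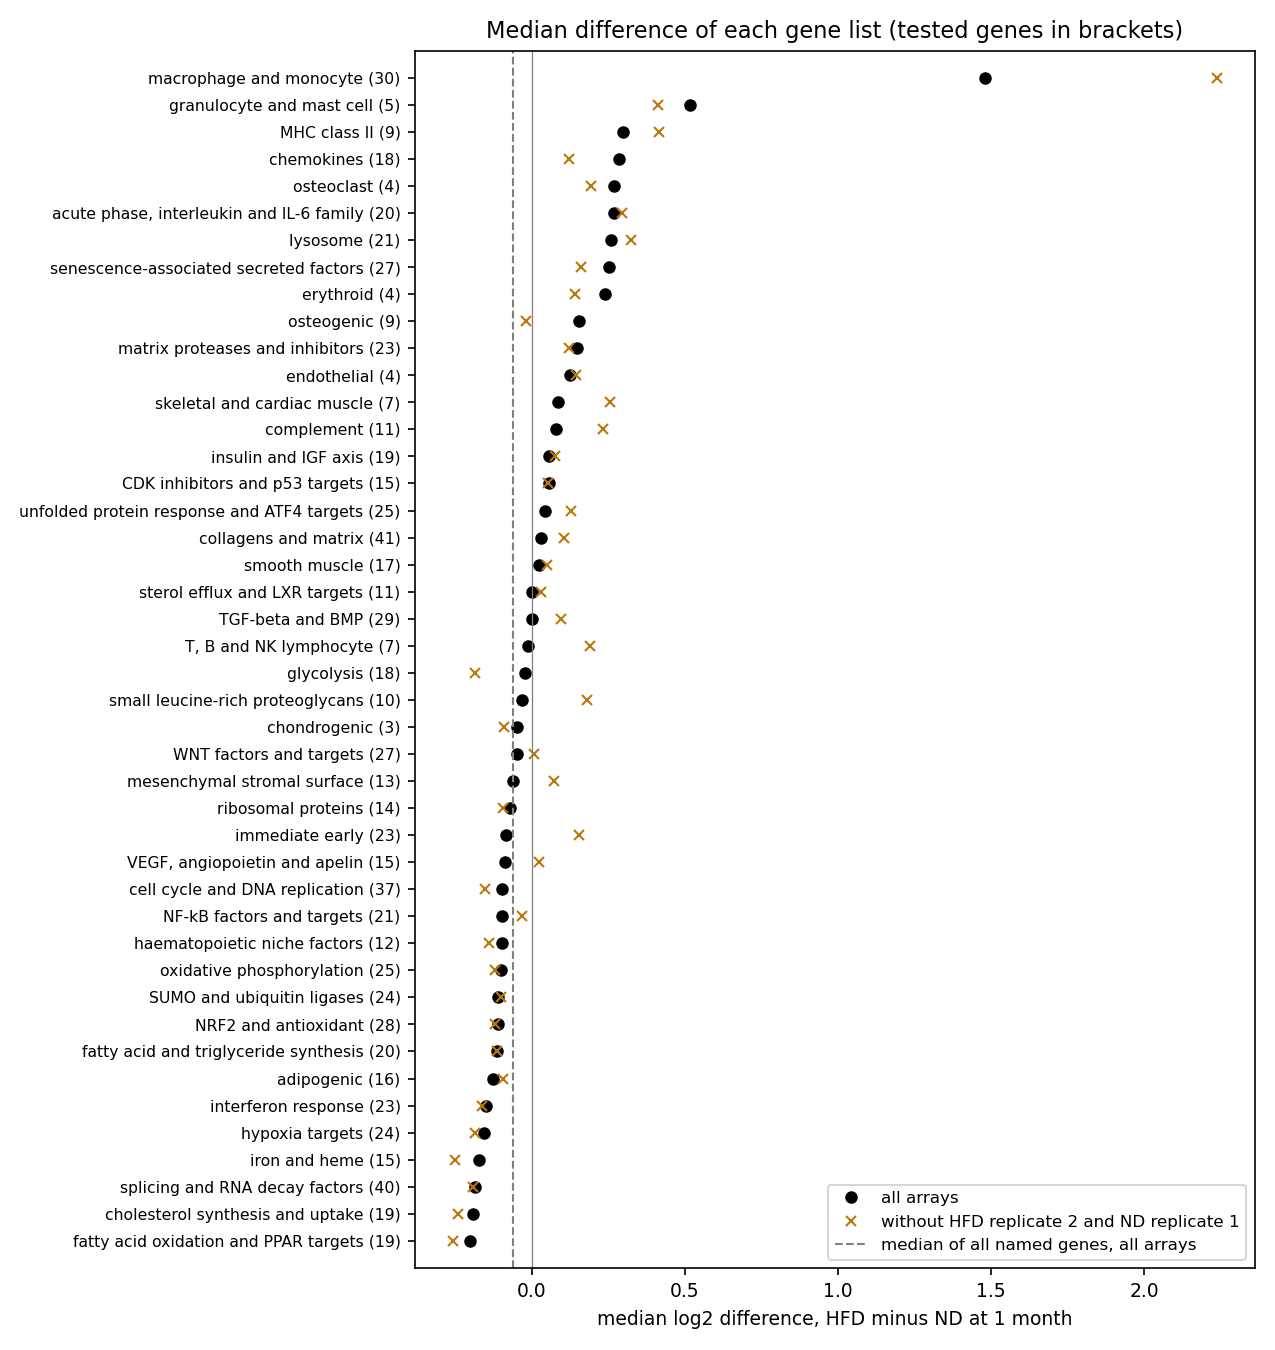
Median log2 difference of HFD minus ND at 1 month (horizontal axis) for each gene list, with the number of tested genes in brackets, over all 6 arrays (points) and without HFD replicate 2 and ND replicate 1 (crosses). The dashed line is the median of all named genes, -0.06. The macrophage list lies far to the right at 1.48, and the splicing and RNA decay list lies at -0.18.

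Several probe sets of 1 gene often gave different sizes. The 509 lower genes had 295 further tested probe sets in 198 genes, of which 227 (76.9%) were lower too and 91 (30.8%) were lower without overlap. Over all genes 64.2% of such further probe sets were lower and 14.2% were lower without overlap. The 257 higher genes had 53 further probe sets in 43 genes, of which 43 (81.1%) were higher and 12 (22.6%) without overlap, against 35.8% and 5.23% over all genes. Ddx6 differed by -0.57 on its brightest probe set and by -0.88 and -0.08 on the others. Khsrp differed by -0.74 and -0.24, Srrm2 by -0.55 and -0.09, Pias1 by -0.45 and -0.21, and Chn2 by 1.07 and 0.27. Nr2c1 differed by -0.47 and 0.01 and Stk35 by -0.42 and 0.16, with the second probe set of each near the floor of the array. The second probe set of Stk35 was higher in HFD without overlap, opposite to its brightest. Trim11 differed by -0.49 and 0.15, R3hcc1l by -0.60 and -0.06, Kcnk3 by 0.51 and 0.14, and Kank2 by -0.88, -0.54 and -0.02. Sfmbt1 differed by -0.49 on the probe set without ND replicate 1. Its other probe set, with a value on all 6 arrays, differed by -0.05 with overlapping groups.

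The lowest p of all belonged to a probe set that did not represent its gene. Ash1l, a histone methyltransferase named here after its values were seen, was at 6.76, 6.26 and 6.43 on HFD arrays, against 7.32, 7.57 and 7.37 on ND arrays by that probe set (-0.94 ± 0.12, limma adjusted p = 0.0513). Its brightest probe set differed by -0.06, and another by -0.31. The same holds for Herc1, a giant ubiquitin ligase, at 4.44, 4.03 and 4.43 on HFD arrays, against 5.93, 5.51 and 5.61 on ND arrays by 1 probe set (-1.38 ± 0.20), while its brightest differed by 0.12.

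The count of calls depended on the processing. Probe sets passing numbered 30 (0.138%) with array weights, 34 (0.156%) with the macrophage mean as a covariate, 18 of 15521 (0.116%) with the dimmest 50% left out and 10 (0.046%) after median centring. Together these were 49 probe sets, and 9 passed in all 4 settings, each lower in HFD. They were those of Pdxdc1, Ddx6 and Khsrp, single probe sets of Ash1l, Herc1, Scaf11 (-0.82), Pals1 (-1.28) and the chromatin remodeller Chd4 (-0.89) that were not the brightest of their genes, and 1 with no single gene name. All 9 had a limma adjusted p between 0.0513 and 0.0564 as reported, but other calls did not lie near the threshold: Prmt9 (-0.44), called with the macrophage covariate, had a limma adjusted p of 0.595. The brightest probe sets of Scaf11, Pals1 and Chd4 differed by -0.16, -0.49 and -0.20.

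The 2- and 4-month arrays share no array with the 1-month comparison, and the leading genes mostly had the same sign there. All 12 leading lower genes were lower in HFD at 2 months and 11 of 12 at 4 months, and the 12 leading higher genes were higher in 12 and in 9. Every one of these later differences was smaller in size than at 1 month, and the genes had been chosen by their 1-month values. Pdxdc1 differed by -1.46, -0.61 and -0.40 after 1, 2 and 4 months, Khsrp by -0.74, -0.40 and -0.44, and Zic2 by 0.61, 0.40 and 0.34. Chn2 differed by 1.07, 0.41 and -0.34. Of the 24, Stk35 passed at 2 months (-0.35, limma adjusted p = 0.0434), and none passed at 4 months.

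**Figure D5:**
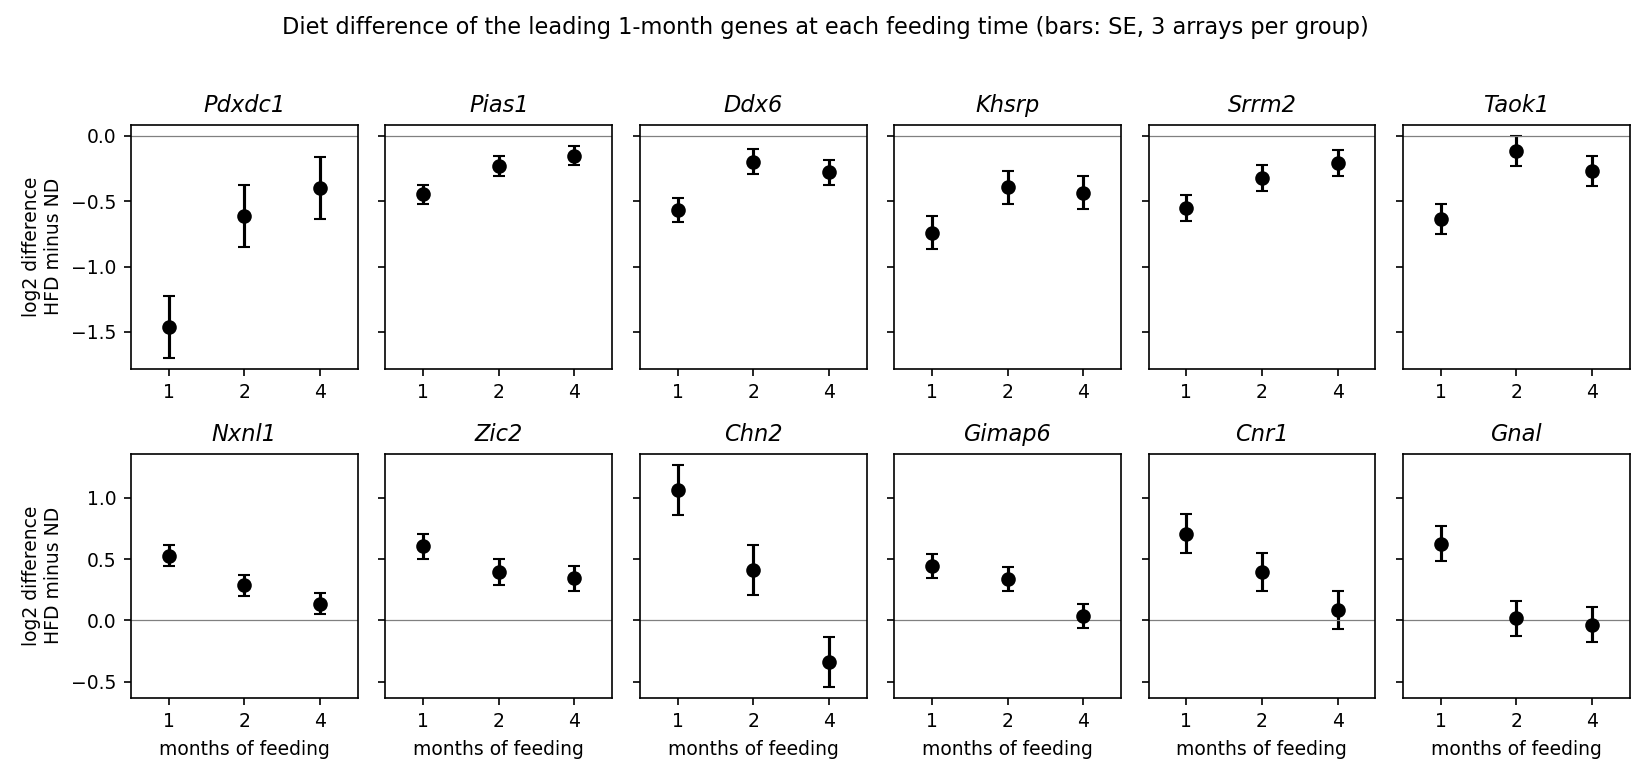
Log2 difference of HFD minus ND (vertical axis, bars are SE, 3 arrays per group) after 1, 2 and 4 months (horizontal axis) for the 6 genes with the lowest moderated t at 1 month (top) and the 6 with the highest (bottom). All 12 keep their sign at 2 months with a smaller size, and Chn2 turns to -0.34 at 4 months.

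Over the wider sets the direction also recurred. Of the 509 lower genes, 83.9% were lower in HFD at 2 months, where 55.3% of all named genes were, and 71.3% were lower at 4 months, against 52.5% of all. Of the 257 higher genes, 92.2% were higher at 2 months, against 44.7% of all, and 73.5% at 4 months, against 47.5%. At 2 months 29 of the lower genes (5.70%) passed as lower, where 1.39% of all named genes did, and 18 of the higher genes (7%) passed as higher, where 1.10% did. None passed at 4 months. The model's common estimate of spread enters both the 1-month p that chose these genes and the 2-month test. Genes with a small spread are therefore favoured in both, and the passing shares are not independent of the choice. Within a level group the gaps were narrower in some cases and wider in others. In the dimmest level group 94.8% of the higher genes and 62.1% of all genes were higher at 2 months. In the same group 74.3% of the lower genes and 38% of all were lower, and in the middle group 85.1% and 60.0%. After quantile normalization 71.7% of the lower genes were lower at 2 months, against 49.2% of all, and 88.3% of the higher genes were higher, against 50.8%. Genes on an array are not independent, and these shares carry no test.

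The array-wide values did not all recur. The actin 3' minus 5' difference, which separated the diets at 1 month, overlapped at 2 months, with 0.661, 0.588 and 0.546 on HFD arrays and 0.701, 0.565 and 0.545 on ND arrays. The 75th percentile of intensity again separated them, with 120.2, 122.4 and 121.9 on HFD arrays, below 131.8, 132.2 and 123.8 on ND arrays. Its part in the shared direction was tested only through quantile normalization, above.

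No gene passed limma's test of a difference in diet effect between feeding times. The effect at 1 month minus that at 2 months passed for 0 of 21729 probe sets (0%), with 1455 (6.7%) at an unadjusted p under 0.05 and a lowest adjusted p of 0.289. The effect at 1 month minus that at 4 months passed for 0 (0%), with 707 (3.25%) unadjusted. For the 24 leading genes the adjusted p of the first of these tests lay between 0.581 and 0.917. The 6 genes with the lowest p in it mostly had overlapping groups at 1 month. Sfrp1, a secreted WNT antagonist, was at 10.08, 9.51 and 10.27 on HFD arrays, against 10.08, 11.25 and 10.21 on ND arrays, a difference of -0.56 at 1 month and of -3.90 at 2 months. Haptoglobin (Hp) differed by -0.04 and -3.34, and the complement proteases C1r and C1s by 0.00 and -1.23 and by 0.26 and -2.48, at 1 and 2 months in that order. Rbm11 and Fpgt ran the other way, lower in HFD without overlap at 1 month (-0.33 and -0.34) and higher at 2 months (0.89 and 0.69). The limma adjusted p of these 6 differences between times was 0.289 each.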

How the data were processed

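The authors deposited 1 table of probe set intensity values for all 18 arrays, on a linear scale, and RMA is the summary method named in the submitters' processing notes, without a version. The column of ND 1-month replicate 1 ended in 1343 empty cells and was moved down by that number. Set against the average of the remaining arrays, it then correlated at 0.990, where the next best offset gave 0.394 and the column as deposited 0.0909. The deposited intensity values were used as log2, without an added constant. Control probe sets (57) and the dimmest 30% of the rest, with a mean over all arrays at or below 3.22 log2, were left out, leaving 21729 of 31099. Gene names came from the platform annotation.

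A model with 1 mean per diet and feeding time was fitted with limma 3.58.1 under R 4.3.3 over the 18 arrays, with 12 residual and 2.43 prior degrees of freedom, and two-sided p-values were adjusted by Benjamini and Hochberg over all tested probe sets. Differences between feeding times were tested as contrasts of the same model. On simulated data with 200 changed probe sets in each of 5 runs, this comparison recovered 70% of 2-fold and 91.2% of 4-fold changes, with 7.4 false calls on average. The simulated noise was independent for each probe set. It lacked the differences between cultures and the array-wide shifts seen in the real arrays, so these shares do not give the sensitivity reached here. A gene is its brightest tested probe set with 1 symbol. Genes named are the 12 highest and 12 lowest by moderated t and the 10 largest differences each way, among those with 6 values and no overlap, the leading members of each of 44 gene lists, the extremes among genes without ND replicate 1, and the lowest p of each further test. The gene lists and this rule were chosen with earlier results of these data known. Lists are described by counts and medians, without a test.

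These p-values rest on the spread among arrays, which the sources describe only as 3 per group. Replicate numbers did not pair the arrays, with residual correlations of -0.571, -0.374 and 0.44 between the diets. The number of arrays limits the precision. No scan date or batch was given. Alternatives are in the closing section.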

Additional observations from a re-analysis of the deposited data

How the results depend on the processing

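The count of probe sets passing at 1 month was 0 as reported and with no intensity filter, quantile normalization, an intensity trend or robust prior, a minimum change of 1.5-fold, the 6 arrays alone or probe sets averaged per gene. It was 34 with the macrophage mean as a covariate, 30 with array weights, 18 with the dimmest 50% left out, 10 after median centring, 1 with probe sets open to cross-hybridization left out and 1 with only probe sets valued on all arrays. Leaving out 1 array at a time gave 0 to 2 (1 without HFD replicate 1 and 2 without ND replicate 3). The replicate block gave 0, with a lowest adjusted p of 0.0504 in limma and 2060 probe sets at an unadjusted p under 0.05, and changed no call in the tests between times. Alternatives chosen after seeing the data, the actin and cell cycle covariates and the removal of HFD replicate 2 with ND replicate 1, also gave 0. For the 1-month minus 2-month effect the count was 6 with array weights and 1 with the macrophage covariate. For the 1-month minus 4-month effect it was 0 throughout. Of 73 single-gene differences, with 1570 alternative values, 1519 kept direction and call and 33 kept direction and passed. The sign turned for Ctsd (-0.0191) and Ctsb (-0.0481) with the macrophage covariate. It turned for C1r, at 0.0135 with array weights, 0.00961 after quantile normalization and 0.00546 without HFD replicate 2 and ND replicate 1, with -0.106 to 0.0867 when 1 array was left out. It turned for C1s, at -0.216 with the actin covariate, with -0.0596 to 0.473 when 1 array was left out. It turned for Hp, at 0.0626 with the actin covariate, 0.0198 with array weights, 0.0253 with the cell cycle covariate, 0.0302 after quantile normalization and 0.0856 without that pair, with -0.435 to 0.185 when 1 array was left out. The causes were not tested. Of 967 list medians under alternatives, 22 moved by more than the spread between arrays, 9 of them with the actin or macrophage covariate. Genes near the floor, such as Nxnl1 and Chn2, are limited by signal over background.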

Other observations

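A group of cytokine and protease genes was high on HFD replicate 2 alone among the arrays that measured them. These genes were named after their values were seen. Cxcl2, a neutrophil chemokine, stood at 3.47, 9.46 and 3.75 on HFD arrays, against 3.46 and 3.25 on ND replicates 2 and 3. Mmp3, a matrix protease, stood at 3.42, 8.66 and 3.63 on HFD arrays, against 2.99 and 3.11 on those ND arrays. Il1a, an interleukin-1 ligand, stood at 3.58, 6.65 and 3.22 on HFD arrays, against 3.42 and 3.46. All 3 lack a value on ND replicate 1, the array most like HFD replicate 2, so no ND value stands beside it for them.

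Where ND replicate 1 was measured, related genes were high on both arrays. The chemokine gene Ccl20 stood at 6.12, 9.77 and 7.61 on HFD arrays, against 10.35, 7.16 and 5.22 on ND arrays, and Cxcl1 stood at 8.97, 12.23 and 9.27, against 11.45, 9.14 and 9.21. The surface glycoprotein gene Cd200 stood at 5.51, 8.83 and 5.98 on HFD arrays, against 9.65, 5.63 and 5.44 on ND arrays. Tfrc, the transferrin receptor of iron-demanding and dividing cells, stood at 9.21, 11.35 and 9.21 on HFD arrays, against 11.65, 9.52 and 9.12 on ND arrays. In each of these genes HFD replicate 2 and ND replicate 1 were the highest 2 of the 6 arrays, and the other 4 lay lower whatever the diet.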
